A study of Mus musculus with 7 samples.

Results

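The complement system genes described here are 8 genes chosen by name, the components C3, C4b and Cfb and the regulators Cfi, Serping1, Cd55, Cd59a and Cr1l. All 8 were found among the 24552 gene symbols of the raw count table. RNA was sequenced from the 3′ end in cholangiocytes, which line the bile ducts, isolated by their surface protein EpCAM from livers of Foxp3GFPDTR mice. These mice make the receptor for diphtheria toxin in Foxp3-positive cells, chiefly regulatory T cells, which the toxin is given to deplete. The DT group (3 libraries) received diphtheria toxin at 1 µg/kg into the peritoneum every 48 h, and the PBS group (4 libraries) received saline on the same schedule. All animals of both groups ate a diet with DDC, a compound that injures bile ducts, for 10 days, so there was no uninjured group and no group without the transgene. The labels give neither age nor sex, and do not say whether a library came from 1 animal or from several, so a p-value here reflects how much the libraries vary, and some of that variation may be technical.

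Complement is a cascade of secreted proteins that marks surfaces for removal and can end in a pore in a target membrane. Its classical and lectin arms run through C4 and C2, its alternative arm through factor B (Cfb), and all of them meet at C3, the protein whose cleavage deposits C3b. Soluble regulators such as factor I (Cfi) and C1 inhibitor (Serping1) and membrane regulators such as Cd55, Cd59a and Cr1l hold the cascade in check on the body's own cells. The liver makes most of the complement in plasma, chiefly in hepatocytes, and epithelial cells including those of bile ducts also make some components, C3 and factor B among them. The comparison asks how bile duct cells respond during injury when Foxp3-positive cells are targeted, and here it is read for the complement genes.

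Total counts ran from 5683824 to 6285624 in DT libraries and from 4805018 to 5499832 in PBS libraries. Genes with a count above 0 numbered 5419, 7827 and 7920 in DT 1 to 3, and 5967, 6952, 6164 and 8361 in PBS 1 to 4. PBS 4 thus had the most genes with reads and DT 1 the fewest. Values are given as reads or as CPM, the usual scaling of reads by library size, with TMM-adjusted sizes, and since the kit reads 3′ ends no value was divided by gene length. Counts of 0 were frequent: if the rest of a group averaged 100 to 200 reads, 43.5% of values were 0, against 8.15% at 500 to 1000 reads and 0.0841% at 2000 to 5000 reads. Among the 8 genes, C3 and Cfb alone averaged more than 500 reads. The labelled cell type was checked against its markers, and all 16 listed cholangiocyte markers had reads, summing to 23207 to 28906 CPM in DT and 20948 to 26478 CPM in PBS. Y-linked genes had 880 to 1681 reads in DT libraries and 2048, 0, 0 and 0 reads in PBS 1 to 4. RNA of males was thus read in every DT library but, among the PBS libraries, in PBS 1 alone. Sex and treatment can therefore hardly be told apart in the fold changes below.

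C3 had by far the most reads of the 8 genes and Cfb the second most, and neither passed the test between the groups. C3, the central component, had 2836, 4365 and 4759 CPM in DT 1 to 3, against 2744, 3395, 3292 and 3214 CPM in PBS 1 to 4. DT 2 and DT 3 lay above every PBS library, while DT 1 lay below 3 of the 4. Averaged over all libraries, C3 ranked 9 of all genes in the table by CPM. Its mean was 3986 ± 1016 CPM in DT (SD, n = 3) and 3161 ± 288 CPM in PBS (SD, n = 4). Its log2 fold change was 0.33 (SE 0.20, adjusted p = 1.00 by the edgeR quasi-likelihood test, unadjusted p = 0.101), and it was 0.51 without DT 1 and 0.18 without DT 3. In these 2 fits the unadjusted edgeR p of C3 was 0.0172 and 0.442. With all 7 libraries the unadjusted p of C3 was 0.063 by DESeq2 and 0.000374 by limma-voom (adjusted p = 0.922 and 0.118). The coefficient of variation of C3 between libraries was 25.5% in DT and 9.11% in PBS, where the median over genes at 500 CPM or more was 22.2% in DT and 27.0% in PBS.

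The 34 listed hepatocyte markers summed to 3731, 4634 and 5560 CPM in DT 1 to 3, against 2175, 2978, 2724 and 3900 CPM in PBS 1 to 4. DT 1, the lowest DT library in this sum as for C3, lay below PBS 4. Gc, the marker with the most reads, had 784, 2140.5 and 2548 CPM in DT 1 to 3. In PBS 1 to 4 it had 770, 1564, 1156 and 1851 CPM. DT 1 was thus the lowest DT library for Gc, but it was the highest for Alb. Of the 34 markers 11 had 0 reads in every library, among them Cps1 and Ass1 of the urea cycle and the cytochrome gene Cyp3a11. Alb had 3580 to 12411 reads, with 2062, 1398 and 1698 CPM in DT 1 to 3 and 695, 973, 1142 and 1277 CPM in PBS 1 to 4. All DT libraries thus lay above all PBS libraries for Alb. Its log2 fold change was 0.75 (SE 0.27, unadjusted p = 0.00741 by edgeR), which did not pass after adjustment. Serpina1b also separated the groups in this direction, while the other listed markers overlapped. Such a separation held for 3.73% of all tested genes, and for 7.37% of those whose average log2 CPM was at least 8. With the hepatocyte score of each library as a covariate the log2 fold change of C3 was -0.05 (SE 0.30), so its sign turned. That covariate also moved the median of highly expressed genes to -0.15, from 0.03 without it. In bulk RNA, fewer cells of a type and less RNA per cell cannot be told apart.

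Factor B, the serine protease that joins C3b to form the C3 convertase of the alternative arm, was read at a level below that of C3. Cfb had 460, 582 and 588 CPM in DT 1 to 3, against 618, 300, 571 and 639 CPM in PBS 1 to 4. All DT libraries lay inside the range of the PBS libraries, where PBS 2 was the lowest. The means were 543 ± 72.4 CPM in DT (SD, n = 3) and 532 ± 157 CPM in PBS (SD, n = 4), which is a log2 fold change of 0.03 (SE 0.36, adjusted p = 1.00 by edgeR). Each library held 6.17, 7.50 and 8.09 reads of C3 per read of Cfb in DT 1 to 3, and 4.44, 11.3, 5.76 and 5.03 in PBS 1 to 4. The DT ratios lay within the PBS range. Annotation of GRCm38, another build than that of the counts, places the convergent gene Nelfe within 1 kb of the 3′ end of Cfb on the opposite strand, and Nelfe had 38, 540 and 556 reads in DT 1 to 3 and 0, 8, 0 and 0 reads in PBS 1 to 4. Every DT library lay above every PBS library for Nelfe, as for 3.73% of all tested genes (unadjusted p = 0.0466 by edgeR, adjusted p = 1.00). The annotation also has Gm20547 overlapping Cfb on the same strand, for which no value was used here.

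**Figure D1:**
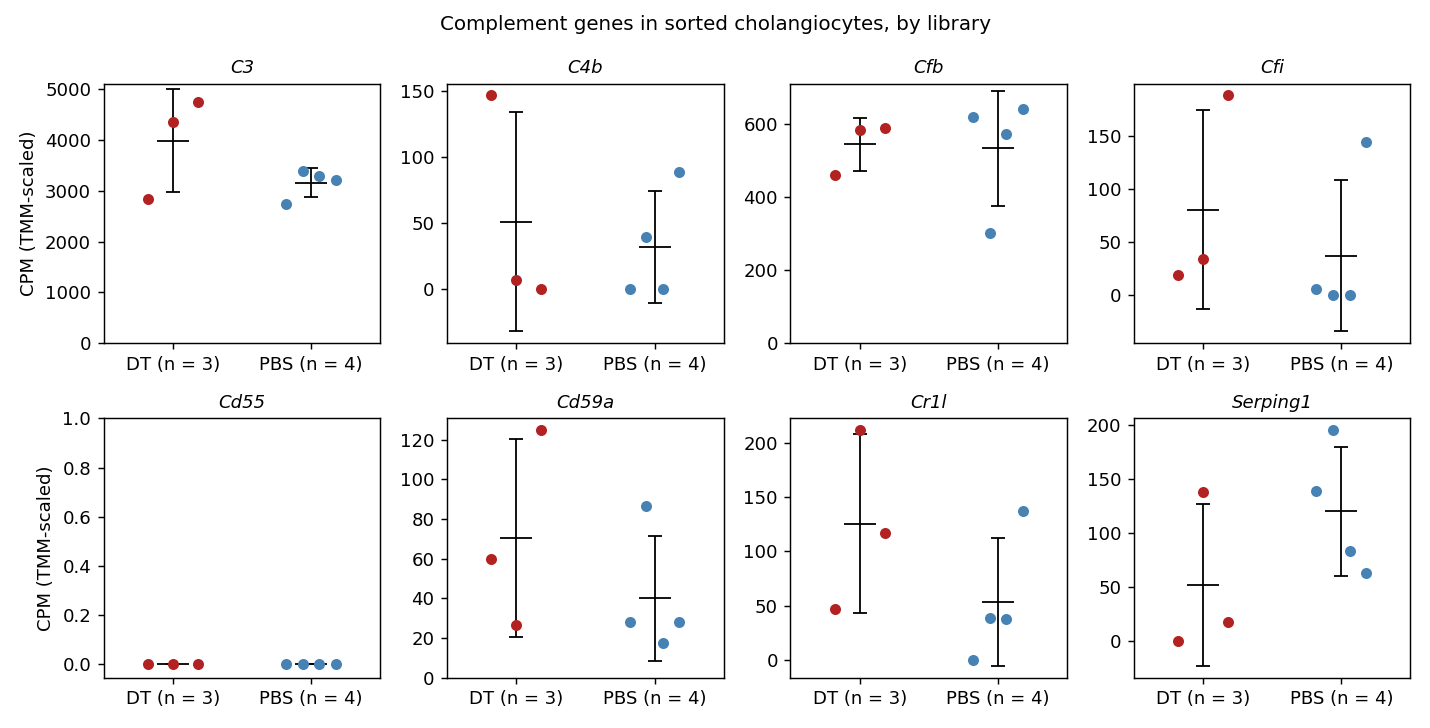
CPM of the 8 complement genes in each library, DT left of PBS, with points for libraries, a horizontal mark for the mean and bars for the SD (DT n = 3, PBS n = 4; each panel has its own linear scale). C3 reaches 4759 CPM in DT 3, against at most 3395 CPM in PBS, with DT 1 (2836 CPM) inside the PBS range, and Cd55 is at 0 in all 7 libraries.

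The bases before the start of C3, the gene with the most reads of the 8, and of Cd55, the gene with none, are shown because the pair marks the ends of the range. Both come from RefSeq on GRCm38.p6, where the table held 4 of the 8 genes (C3, Cd55, Cd59a and Cr1l). Each stretch is the 250 bases upstream of the start on the minus strand, C3 at chr17:57228137-57228386 and Cd55 at chr1:130462745-130462994, with capitals for a motif match.
C3: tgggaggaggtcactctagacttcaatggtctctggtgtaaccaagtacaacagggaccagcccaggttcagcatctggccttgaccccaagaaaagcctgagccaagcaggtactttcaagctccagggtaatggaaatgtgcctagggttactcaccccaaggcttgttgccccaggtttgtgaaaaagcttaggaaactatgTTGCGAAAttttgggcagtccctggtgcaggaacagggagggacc
Cd55: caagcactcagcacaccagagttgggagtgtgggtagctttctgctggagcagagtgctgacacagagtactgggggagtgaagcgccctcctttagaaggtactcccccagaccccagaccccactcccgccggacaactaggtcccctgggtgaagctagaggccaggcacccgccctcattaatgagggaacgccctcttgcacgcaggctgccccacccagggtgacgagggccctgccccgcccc
Searched on both strands were NF-kB (GGGRNNYYCC), STAT (TTCNNNGAA), the IRF core (GAAANNGAA), C/EBP (TTGCNNAA) and AP-1 (TGANTCA), of which matches may overlap. In these patterns R is A or G, Y is C or T, and N is any base. C3 held 1 C/EBP match, 45 to 38 bases before its start, and Cd55 held none of the 5. Among the 32851 such upstream stretches available, 9.56% held a C/EBP match, 7.25% NF-kB, 7.02% STAT, 6.75% AP-1 and 7.13% the IRF core. These stretches did not cover all genes. A match is a run of letters and says nothing of binding in these cells.

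In the classical arm C4b, the gene for complement component 4B, was read in 4 of the 7 libraries. C4b had 881, 37 and 0 reads in DT 1 to 3, and 0, 202, 0 and 449 reads in PBS 1 to 4. Each group thus held libraries with over 200 reads beside libraries with none, and the groups overlapped. The mean was 51.1 ± 82.6 CPM in DT (SD, n = 3) and 32.1 ± 42.1 CPM in PBS (SD, n = 4), with a log2 fold change of 0.67 (SE 2.76, adjusted p = 1.00 by edgeR) that turned to -3.22 without DT 1. C4a, its neighbouring paralog, had 0 reads in every library. The last 500 bases of the annotated C4b and C4a transcripts were 98.0% identical, with 131 bases in a row shared, so reads from the pair are hard to assign, and both counts are uncertain.

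Other genes that start the cascade were read at similar low levels. C2, which pairs with C4b in the classical convertase, had 879, 89 and 523 reads in DT 1 to 3 and 990, 114, 0 and 287 reads in PBS 1 to 4, so the groups overlapped (log2 fold change 0.33, SE 1.83, edgeR adjusted p = 1.00, and -0.34 without DT 1). The C1q chain genes C1qa, C1qb and C1qc, which macrophages chiefly make, summed to 1179, 460 and 496 reads in DT 1 to 3 and 0, 106, 0 and 1951 reads in PBS 1 to 4. PBS 4 was thus the highest of all 7, while the other PBS libraries were the lowest. Their log2 fold changes were 0.21 for C1qa, 1.80 for C1qb and -2.28 for C1qc (SE 2.79, 2.63 and 3.34, edgeR adjusted p = 1.00 for each). Without PBS 4 the value of C1qa was 10.83, a fit against PBS libraries that all had 0 reads, which depends on the prior count and is no bound.

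Macrophage and monocyte markers moved with the C1q genes in part of the libraries. Cd14 alone had 7746, 6577 and 7188 reads in DT 1 to 3 and 4169, 7470, 7034 and 4425 reads in PBS 1 to 4. The other 14 markers of that list, a choice made after their values were seen, summed to 74.9, 504 and 868 CPM in DT 1 to 3 and 63.1, 138, 56.4 and 1442 CPM in PBS 1 to 4. PBS 4 was the highest in these 14, but DT 1 was near PBS 1 to 3 in these markers while it held 196 CPM of C1q reads. Of the 15 markers, Adgre1, which encodes F4/80, had 0 reads in every library. The part of macrophage RNA in these values was not tested.

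**Figure D2:**
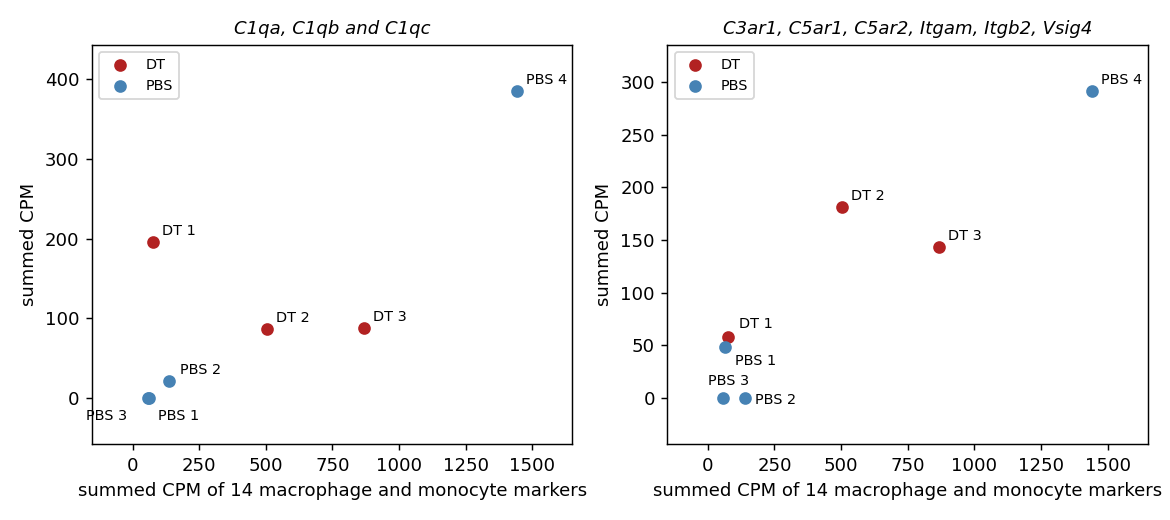
Summed CPM of the 3 C1q genes (left) and of 6 complement receptor genes (right) against summed CPM of 14 macrophage and monocyte markers, on linear axes, 1 point per library (DT red, PBS blue). PBS 4 stands apart at 1442 CPM of markers and 385 CPM of C1q, and DT 1 holds 196 CPM of C1q at 74.9 CPM of markers.

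Among the soluble regulators, Cfi and Serping1 were read in part of the libraries and did not separate the groups. Cfi encodes factor I, the protease that cleaves C3b and C4b. It had 117, 184 and 1065 reads in DT 1 to 3, against 32, 0, 0 and 729 reads in PBS 1 to 4. DT 3 and PBS 4 were high and the other libraries low in both groups. The mean was 80.6 ± 93.2 CPM in DT (SD, n = 3) and 37.5 ± 71.0 CPM in PBS (SD, n = 4), which is a log2 fold change of 1.10 (SE 2.34, adjusted p = 1.00 by edgeR) that was -0.48 without DT 3 and 5.26 without PBS 4.

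Serping1 encodes C1 inhibitor, which blocks the proteases of C1 and of the lectin arm. It had 0, 732 and 99 reads in DT 1 to 3, against 714, 988, 404 and 316 reads in PBS 1 to 4. Every PBS library had reads, while DT 1 and DT 3 lay below all of them and DT 2 lay among them. Means of 51.6 ± 74.8 CPM in DT (SD, n = 3) and 120 ± 59.5 CPM in PBS (SD, n = 4) gave a log2 fold change of -1.21 (SE 1.58, adjusted p = 1.00 by edgeR), the one negative value among the tested genes of the 8. It was negative in all 16 alternatives, from -4.59 to -0.65, and passed the threshold in none.

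Clu, which encodes clusterin, a secreted chaperone that binds the terminal complement complex, held most complement pathway reads. It is not one of the 8 genes and was taken from a list of the pathway. Clu had 18787, 17548 and 18381 CPM in DT 1 to 3, against 11971, 13966, 13723 and 15799 CPM in PBS 1 to 4. Every DT library lay above every PBS library, as held for 54 of the 733 genes (7.37%) whose average log2 CPM was at least 8. Its mean was 18238 ± 632 CPM in DT (SD, n = 3) and 13865 ± 1566 CPM in PBS (SD, n = 4), which is a log2 fold change of 0.40 (SE 0.13). It did not pass the test over all genes (edgeR adjusted p = 1.00, unadjusted p = 0.00421, and adjusted p = 0.0836 by DESeq2 and 0.922 by limma-voom). Over all 7 libraries Clu ranked 2 of all genes by CPM. The value was 0.31 (SE 0.18) with the hepatocyte score as a covariate. With Y-linked reads (present or not) as a covariate it was 0.61 (SE 0.19), which sets DT against PBS 1 alone, the one PBS library with such reads.

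Of the other soluble regulators, C4bp, the cofactor of factor I on C4b, had 491, 0 and 413 reads in DT 1 to 3 and 0, 0, 0 and 428 reads in PBS 1 to 4 (log2 fold change 1.28, SE 2.94, adjusted p = 1.00 by edgeR). The 3 libraries with reads had similar counts, and a gene at this level often had a count of 0 by the rates given above.

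No membrane regulator passed the test in either direction. Cd55, decay-accelerating factor, which takes C3 convertases apart, had 0 reads in all 7 libraries. By counting error alone a count of 0 allows up to 3 reads, or 0.498 to 0.563 CPM in DT and 0.582 to 0.618 CPM in PBS, and the true limit is higher given the rate of 0 values. Its mouse paralog Cd55b was also at 0 in every library, as were Cd46 and Cr2 of the same list of membrane regulators. Reads at 0 in a 3′-end count do not show that a transcript is absent.

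Cd59a, which keeps C9 from forming the membrane pore, had reads in every library, with 361, 142 and 708 in DT 1 to 3 and 144, 439, 86 and 141 in PBS 1 to 4. DT 3 was the highest and PBS 3 the lowest, and the groups overlapped. The mean was 70.5 ± 49.9 CPM in DT (SD, n = 3) and 40.0 ± 31.4 CPM in PBS (SD, n = 4), which is a log2 fold change of 0.82 (SE 2.22, adjusted p = 1.00 by edgeR) that was 0.11 without DT 3 and 1.52 without PBS 2. Its paralog Cd59b had 0 reads in every library, and the longest run shared by the last 500 bases of their transcripts was 10 bases.

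Cr1l, known as Crry, is a mouse regulator on the membrane that limits C3 and C4 convertases. It had 284, 1126 and 665 reads in DT 1 to 3, against 0, 197, 181 and 695 reads in PBS 1 to 4. DT libraries lay above PBS 1 to 3 while PBS 4 lay between DT 3 and DT 2, so the groups overlapped. The mean was 125 ± 82.4 CPM in DT (SD, n = 3) and 53.3 ± 58.7 CPM in PBS (SD, n = 4), with a log2 fold change of 1.23 (SE 1.63, adjusted p = 1.00 by edgeR). It was 2.30 without PBS 4 and -0.76 with the hepatocyte score as a covariate. With the replicate block, which sets DT against PBS 1 to 3, it was 3.56. With the Y-linked covariate it was 12.38 (SE 4.28), a fit against PBS 1 alone, which had 0 reads, so that value is no bound.

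Receptors for complement fragments were read sparsely, apart from C1qbp. C1qbp encodes a protein that binds the heads of C1q and is found mainly in mitochondria. It had 1637, 762 and 1322 reads in DT 1 to 3 and 2872, 1205, 755 and 645 reads in PBS 1 to 4 (log2 fold change -0.32, SE 0.56, edgeR adjusted p = 1.00, and 0.30 without PBS 1). C5ar1, the receptor of C5a, had 271, 0 and 252 reads in DT 1 to 3 and 0, 0, 0 and 359 reads in PBS 1 to 4, with a log2 fold change of 0.75 (SE 3.19, adjusted p = 1.00 by edgeR). The integrin gene Itgb2, a chain of complement receptors 3 and 4, had 79, 344 and 0 reads in DT 1 to 3 and 248, 0, 0 and 689 reads in PBS 1 to 4 (log2 fold change -0.83, SE 2.89, edgeR adjusted p = 1.00). As with C1q, PBS 4 held the most reads of 6 receptor genes together (1477), namely C3ar1, C5ar1, C5ar2, Itgam, Itgb2 and Vsig4. PBS 2 and PBS 3 held 0 reads of these 6, whereas PBS 2 had 106 reads of C1q. Cd93 of the same list, not in this sum, had 0, 277 and 335 reads in DT 1 to 3. In PBS 1 to 4 it had 0, 0, 0 and 1 reads.

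**Figure D3:**
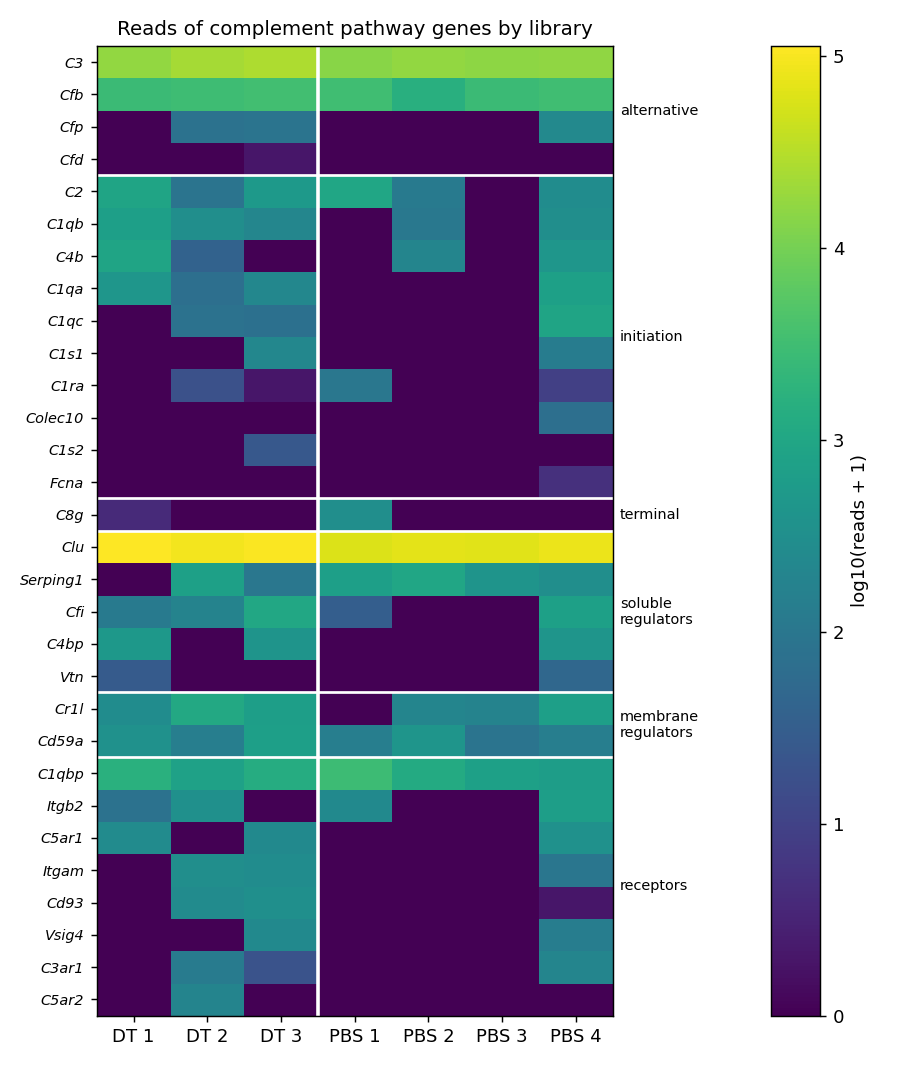
Reads of complement pathway genes, shown as log10(reads + 1) by colour, with libraries across (DT left of the white line, PBS right of it) and genes grouped by role. Clu, C3, Cfb and C1qbp have reads in all 7 libraries together with Cd59a. PBS 4 fills many rows that are at 0 in PBS 1 to 3, and over the whole table it had the most genes with reads (8361).

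Across the pathway, a few genes carried nearly all reads. Of 59 listed symbols 56 were in the table, 25 of these had 0 reads in every library and 5 had reads in every library. C3, Cfb and Clu together made up 95.2%, 96.1% and 95.2% of pathway reads in DT 1 to 3, and 93.6%, 96.5%, 98.4% and 92.9% in PBS 1 to 4. The shares overlapped between the groups. Of the 7 terminal pathway genes, which build the membrane pore, 6 had 0 reads in every library, and C8g, the exception, had 3, 0 and 0 reads in DT 1 to 3 and 317, 0, 0 and 0 reads in PBS 1 to 4.

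The filter on low counts kept 7 of the 8 genes, all but Cd55, and edgeR called 0 of them higher and 0 lower at an adjusted p below 0.05. Over all 7688 tested genes, 0 were called higher (0%) and 3 lower (0.039%). By edgeR with all libraries, 0 of the 7 had an unadjusted p below 0.05 in each direction. Of all tested genes, 1.39% had one in the higher and 2.11% in the lower direction. By limma-voom C3 had an unadjusted p of 0.000374. DESeq2 gave no p for Cfi and called 0 of the others in each direction, with 0.377% of tested genes higher and 1.07% lower, and limma-voom called 0 of the 7, with 0.078% higher and 0.078% lower. In none of the 7 was every DT library above every PBS library (3.73% of tested genes) or every DT library below (2.58%). Log2 fold changes were positive in 6 of the 7, where 49.3% of all tested genes were positive, and their median was 0.67, against -0.02 over all tested genes. That median was that of C4b, whose SE was 2.76. With the hepatocyte score as a covariate the median of the 7 was -0.40, against -0.54 over all tested genes. Of 19 tested genes of the whole pathway list, which includes these 7, edgeR called 0 higher and 0 lower, 13 had positive and 6 negative values, the median was 0.33, and Clu alone had an unadjusted p below 0.05.

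**Figure D4:**
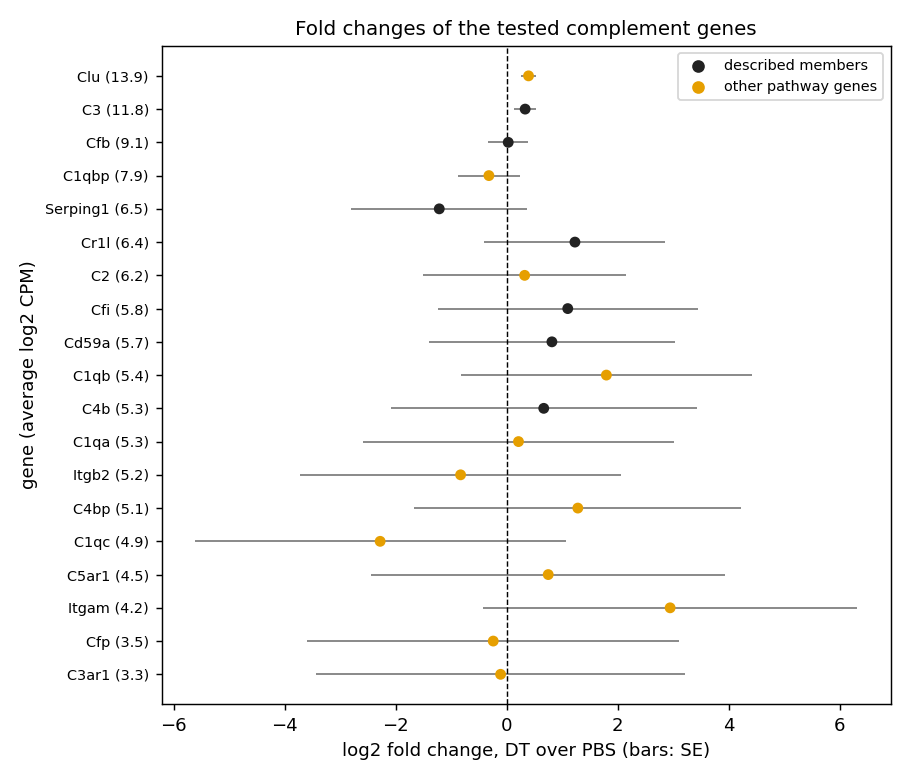
Log2 fold changes of DT over PBS for the 19 tested pathway genes with SE bars, ordered by average log2 CPM, given in parentheses (black, the described genes; orange, others). Clu (0.40, SE 0.13) and C3 (0.33, SE 0.20) have the narrowest bars, while genes under an average log2 CPM of 7 have bars that span more than 1 log2 unit on either side.

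Cytokine receptors, kinases and transcription factors known to act on complement gene transcription were compared as a second list. Of 21 listed genes 17 were tested, of which edgeR called 0 higher and 0 lower (0 also at p below 0.05 without adjustment), with a median log2 fold change of -0.11. Stat3, which carries signals of the IL-6 family, had the most reads of the list, with 779, 1064 and 1290 CPM in DT 1 to 3 and 1243, 803, 538 and 1494 CPM in PBS 1 to 4 (log2 fold change 0.03, SE 0.31). Jak1, a kinase of cytokine receptors, averaged 499 ± 91.7 CPM in DT (SD, n = 3) and 469 ± 104 CPM in PBS (SD, n = 4). The NF-kB subunit gene Nfkb1 averaged 521 ± 154 CPM in DT and 371 ± 185 CPM in PBS, a log2 fold change of 0.49 (SE 0.41). Ifngr1, a chain of the interferon-gamma receptor, averaged 221 ± 174 CPM in DT and 365 ± 111 CPM in PBS, a log2 fold change of -0.72 (SE 0.64). The edgeR adjusted p was 1.00 for each of these 4 genes, and the groups overlapped. Every DT library lay above every PBS library in 2 of the 17 (3.73% of all tested genes), named after their values were seen. The kinase gene Jak2 had 1126, 845 and 391 reads in DT 1 to 3 and 0, 190, 9 and 184 reads in PBS 1 to 4 (log2 fold change 2.87, SE 1.99). The NF-kB subunit gene Relb had 853, 921 and 1531 reads in DT 1 to 3 and 139, 673, 350 and 552 reads in PBS 1 to 4 (log2 fold change 1.19, SE 0.90), and neither passed the edgeR test (adjusted p = 1.00 for both).

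The profiles of C3 and Cfb across the 7 libraries were compared with those of other highly expressed genes. Likeness was measured as the root mean square difference of log2 CPM, each gene centred on its own mean, among the 730 genes read in every library whose average log2 CPM was at least 8. The genes nearest to C3 were Spp1 (0.15), Atp1b1 (0.15) and Gas6 (0.16), where the median over genes was 0.54. Cfb lay at 0.42 from C3, rank 208 of 729 genes and so nearer than the median. Nearest to Cfb were Slc38a2 (0.16), Eef2 (0.20) and Rps19 (0.20), where the median was 0.61. Spp1, which encodes osteopontin, had 13745 ± 1811 CPM in DT (SD, n = 3) and 11098 ± 1856 CPM in PBS (SD, n = 4). Small differences in this measure also reflect high read counts, since sparsely read genes vary more.

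**Figure D5:**
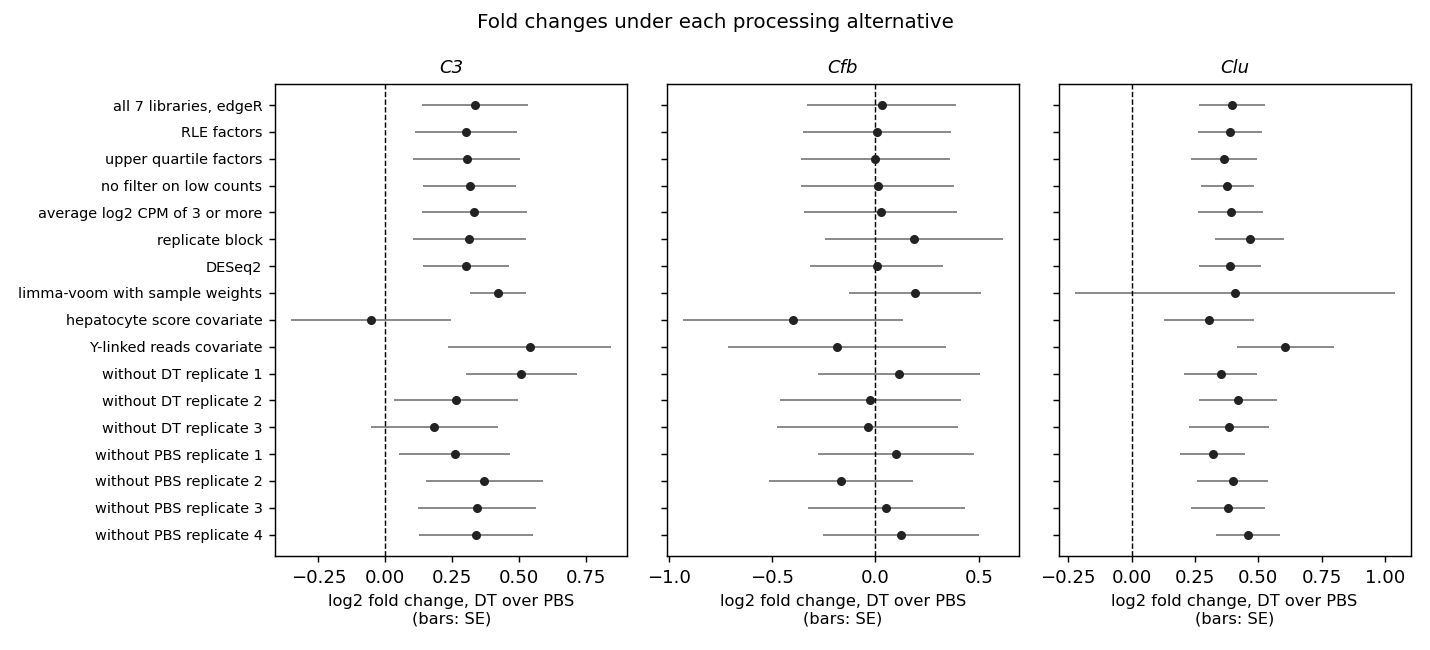
Log2 fold changes of DT over PBS with SE bars for C3, Cfb and Clu, with all 7 libraries by edgeR and under each of 16 processing alternatives (the Y-linked covariate sets DT against PBS 1 alone, the replicate block sets DT against PBS 1 to 3, and each panel has its own linear scale). Clu is positive in all of them (0.31 to 0.61), C3 in all but the hepatocyte score (-0.05), and Cfb lies on both sides of 0 (-0.40 to 0.19).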

How the data were processed

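Per the labels' protocols, libraries were made from total RNA with a QuantSeq FWD kit, which reads 3′ ends. The deposited values are raw counts of reads per gene symbol, with genome build mm9 per the submitters' processing notes. How reads were aligned and counted, with which annotation and strand setting, and whether molecular identifiers were used is not given in the sources used here. Sample titles gave the groups and the replicate numbers. The members and lists were chosen with earlier results of these data known.

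The DT and PBS libraries were compared with edgeR 4.0.16 and its quasi-likelihood F test (R 4.3.3, TMM scaling, filterByExpr, robust dispersion, two-sided, Benjamini-Hochberg over 7688 tested genes, threshold 0.05). The tested genes held 97.5% of counts. The SE came from the fold change and F statistic. Alternatives were RLE and upper quartile factors, other filters, the replicate number as a block, DESeq2 1.42.0, limma-voom (limma 3.58.1) with sample weights, 2 covariates (a hepatocyte score, the mean log2(CPM + 1) of 11 tested markers standardised over the libraries, and the presence of Y-linked reads) and leaving out each library. DT has no replicate 4, so with the block PBS 4 adds nothing to a fold change. The scripts were tested on simulated counts with 200 changed genes. At a simulated log2 fold change of 1, edgeR recovered 0% of them, also when the changed genes were highly expressed. At 2 it recovered 3.5% over all levels and 27.5% when they were highly expressed, with 0 to 2 false calls throughout. DESeq2 recovered 1.5% to 48.5% with 86 to 146 false calls, and limma-voom 0% to 38.5% with 1 to 19. A gene that edgeR did not call is thus not shown to be unchanged. Floors of 3 counts cover counting error only. No 2 libraries of a group agreed within sampling noise (chi-square per degree of freedom 182 to 298).

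Named genes were the 8 members, pathway genes averaging 100 reads or more, the 4 signalling genes with the most reads, and for members with reads in every library and an average log2 CPM of 8 or more the 3 genes of nearest profile. C8g, C4a and other genes outside this rule were named after their values were seen. A gene of the pathway list is counted in its totals but not reported here. Figures were drawn with matplotlib 3.10.9.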

Additional observations from a re-analysis of the deposited data

Results flagged for a closer look

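In 7 of 20 named genes, 1 PBS library stood far from the remaining PBS libraries. The rule flags about 1 in 20 by chance when values vary smoothly, a rate that does not hold for genes with many counts of 0. The gap of the extreme library to its nearest neighbour is given as a share of the range of the group. For C1qa, C1qc, C4bp and C5ar1 this share was 1, as it must be when PBS 4 has reads and PBS 1 to 3 have 0. For Cfi it was 0.957, with 729 reads in PBS 4 against 32, 0 and 0 in PBS 1 to 3. In Cd59a the share was 0.851, with PBS 2 the high library (86.6 CPM, against 17.7 to 28.0 CPM in the others). In Jak1 it was 0.915, with PBS 1 the high library (625 CPM, against 409 to 427 CPM). In 5 of the 7 genes PBS 4 was the high library. It also had the highest summed CPM of macrophage and monocyte markers (2316 CPM, against 2136 CPM in DT 3, the next), and the part of such RNA was not tested.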

How the results depend on the processing

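Of the members and pathway genes that had an adjusted p, none was called in the 16 alternatives. Among the named genes, DESeq2 gave none for Cfi and C1qc, and without PBS 4 the filter removed C1qc, C4bp and C5ar1. Genes called higher and lower over the whole table numbered 1 and 7 with no filter on low counts, 6 and 6 with the replicate block, 29 and 82 by DESeq2 and 6 and 6 by limma-voom. There were 1 higher when the filter was an average log2 CPM of 3, 23 higher with the Y-linked covariate (DT against PBS 1 alone), and 0 to 1 higher and 1 to 4 lower when 1 library was left out. The median of the members was -0.40 with the hepatocyte score, 1.33 with the Y-linked covariate and 0.11 to 0.69 when 1 library was left out, a range with 0.11 without DT 3 and 0.26 without PBS 1.

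Values that changed sign were, with the hepatocyte score, C3 (-0.0524), Cfb (-0.40), Cfi (-1.35), Cr1l (-0.76), C1qbp (1.06) and Stat3 (-0.41). The Y-linked covariate sets DT against PBS 1 alone, a single library, and so is not an adjusted comparison of the groups. With it the values that changed sign were Cfb (-0.19), C1qc (8.60, against 0 reads in PBS 1), C2 (-1.18), Stat3 (-0.25) and Jak1 (-0.32). These covariates moved the median of all tested genes to -0.54 and 0.67. With upper quartile factors Cfb was at -1.68e-05. With the replicate block, which sets DT against PBS 1 to 3, C1qc and Itgb2 were at 7.74 and 1.49. C1qc had 0 reads in PBS 1 to 3, so its value is no bound. By limma-voom C4b, C1qc and Itgb2 were at -1.81, 2.75 and 0.0348. When 1 library was left out, values ran from -3.22 to 1.94 for C4b, -0.17 to 0.12 for Cfb, -0.48 to 5.26 for Cfi, -0.54 to 10.83 for C1qa, -0.34 to 1.68 for C2, -0.56 to 0.30 for C1qbp, -2.82 to 0.68 for Itgb2, -0.19 to 0.27 for Stat3 and -0.0819 to 0.25 for Jak1. The cause was not tested.

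Same-numbered libraries deviated from their group means with correlations of 0.00590 to 0.0270 over 730 genes, 0 of 3 over 0.1. No pairing by replicate number was thus seen, but 3 pairs are too few to exclude it. Of the DT libraries, DT 1 correlated best with its own number. Frequent values of 0 under about 1000 reads limit the precision for all members but C3 and Cfb.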
